A study of Homo sapiens with 6 samples.

Results

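The antigen receptor loci of immunoglobulin (IGH, IGK, IGL) and of the T-cell receptor (TRA, TRB, TRG) were examined with the genes RAG1, RAG2 and DNTT in maps of open chromatin from 3 B-cell acute lymphoblastic leukemia lines. These 9 members were placed in 8 fixed windows of the human genome build hg19, RAG1 and RAG2 sharing 1, and every peak that overlapped a window was taken. Peaks of all 12 lists were merged into regions, and 403 of 130872 regions lay in the windows, which span 5.055 Mb. A region is called open in a list that has a peak of at least 1 bp there.

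In each line, cells carrying sh2, an shRNA against NSD2, a histone H3 lysine 36 methyltransferase, were set against cells carrying the non-targeting control shRNA NT. The lines were RS411 (RS4;11) and SEM, both with a KMT2A-AFF1 fusion, and RCH, taken as the RCH-ACV of the growth protocol. ATAC-seq, in which the Tn5 transposase cuts accessible DNA and tags it for sequencing, gave 2 peak lists for each of the 6 samples, read here as 2 libraries. No label says that the libraries came from separate cultures, so their spread may be technical, and with 1 sample per line and shRNA no test within a line was possible. All groups are long-cultured leukemia lines with 1 shRNA, and no second shRNA against NSD2 was analysed here. Markers of the B lineage were not examined here, for lack of an hg19 annotation.

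V(D)J recombination builds the variable part of an antigen receptor gene in developing lymphocytes. The RAG1 and RAG2 proteins together cut DNA beside V, D and J segments, repair enzymes join the ends, and DNTT (terminal deoxynucleotidyl transferase) adds bases without a template at the joints. In the B lineage IGH is rearranged first and the light chain loci IGK and IGL later, while the TRA, TRB and TRG loci belong to the T lineage, although leukemic B-cell precursors often carry rearrangements there as well. Joining removes the DNA between the joined segments or, for segments in the opposite orientation, inverts it. The lists hold neither read depth nor DNA copy number, so in every stretch without peaks described here, DNA lost from the cells and DNA that was closed cannot be told apart. Many V segments are near-copies of each other, and how reads with several matches were placed is not given in the sources used here.

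The promoters of the 3 enzyme genes are shown because the genes are expressed in immature lymphocytes and their windows were among the denser relative to the whole list. RefSeq (GRCh38.p14) gives them as 250 bases before to 50 bases after the start, at chr11:36510103-36510402 on the plus strand for RAG1, chr11:36598187-36598486 on the minus strand for RAG2 and chr10:96304184-96304483 on the plus strand for DNTT. The start given by RefSeq was taken for each gene, and whether lymphocytes or these lines use that start was not examined. The RAG1 start lies at a much lower coordinate than that of RAG2, so its letters may belong to a remote start of the gene. Capitals mark the E-box letters CANNTG, a sequence bound by E proteins.

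RAG1: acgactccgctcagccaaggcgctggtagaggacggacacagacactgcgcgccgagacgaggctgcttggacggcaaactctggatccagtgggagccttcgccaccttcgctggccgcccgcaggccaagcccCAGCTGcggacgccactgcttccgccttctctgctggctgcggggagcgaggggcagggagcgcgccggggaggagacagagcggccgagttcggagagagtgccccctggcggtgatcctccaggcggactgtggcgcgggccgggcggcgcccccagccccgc
RAG2: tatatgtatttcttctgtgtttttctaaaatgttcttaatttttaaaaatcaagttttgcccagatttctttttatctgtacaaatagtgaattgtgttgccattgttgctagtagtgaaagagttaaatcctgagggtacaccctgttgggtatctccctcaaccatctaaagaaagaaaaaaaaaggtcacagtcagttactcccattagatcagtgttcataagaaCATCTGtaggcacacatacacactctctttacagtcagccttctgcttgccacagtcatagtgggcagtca
DNTT: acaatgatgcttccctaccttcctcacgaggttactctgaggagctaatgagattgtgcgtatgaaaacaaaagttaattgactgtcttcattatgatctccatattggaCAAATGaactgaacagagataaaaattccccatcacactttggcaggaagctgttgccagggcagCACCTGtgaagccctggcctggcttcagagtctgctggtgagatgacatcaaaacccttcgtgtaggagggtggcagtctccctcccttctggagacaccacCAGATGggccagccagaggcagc

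At the starts taken here, RAG1 had a GC content of 72.3% and 32 CG pairs, RAG2 36.7% and 0, and DNTT 49.3% and 3. The medians over 35116 promoters were 58.7% and 14. The contrast of RAG1 with RAG2 holds for these starts only. CANNTG reads the same on both strands and was found 1 time for RAG1, 1 time for RAG2 and 3 times for DNTT. At least 1 match was present in 68.7% of all promoters, and at least 3 in 15.3%, so that a single match is common. Peaks were not placed on these letters, since their coordinates belong to another build.

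**Figure D1:**
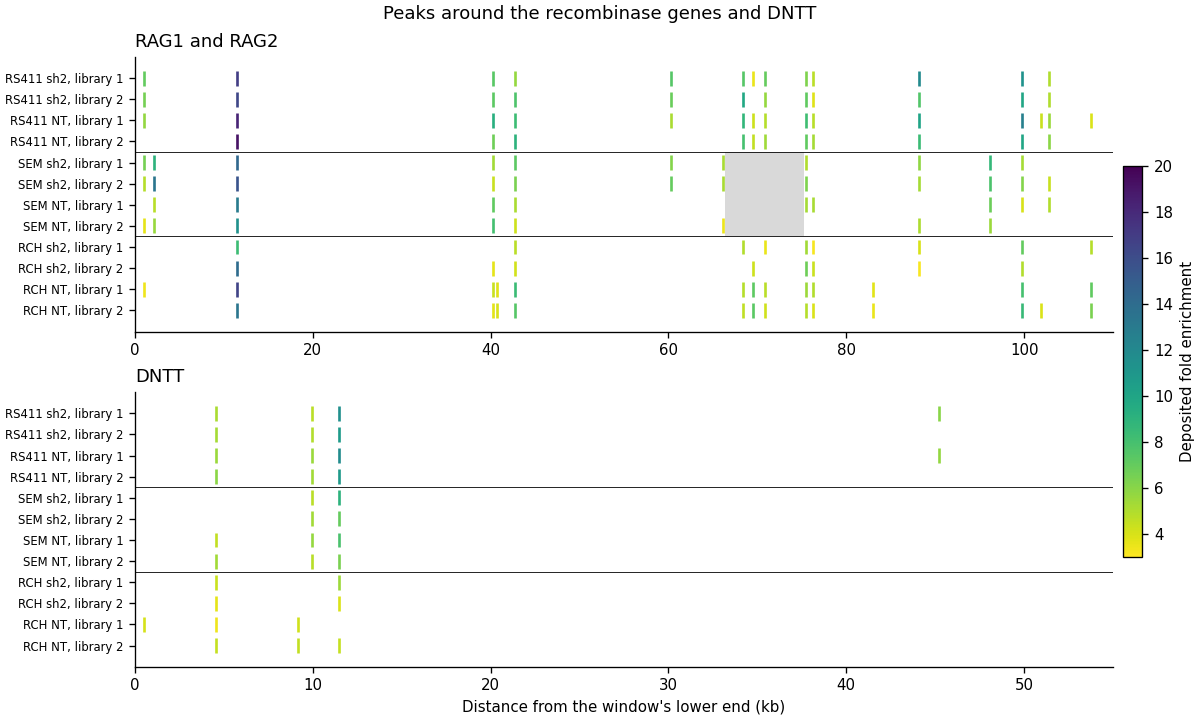
Peaks in the RAG1 and RAG2 window (top) and the DNTT window (bottom). Each row is 1 library, the horizontal axis is the distance in kb from the lower end of the window, each tick is a region with a peak in that library, colour is the deposited fold enrichment, and grey marks the run of 3 regions without a SEM peak. The dark column near the left of the upper panel is the region open in all 12 lists with folds of 8.33 to 19.2.

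The recombinase genes lay in the window densest in peaks. RAG1 and RAG2, neighbours that lie between TRAF6 and IFTAP in the RefSeq order, had 13 and 13 peaks in RS411 sh2 and 15 and 11 in RS411 NT. SEM had 12 and 12 with sh2 and 10 and 8 with NT, and RCH had 9 and 8 with sh2 and 14 and 14 with NT. Per Mb, this was 4.01 to 6.83 times the density of the whole list, with a mean of 5.38 over 12 lists. The SD over the 6 sample means, each of 2 libraries, was 0.85. Every list was also denser here than in the flanks of the window. The counts of sh2 and NT overlapped in RS411, were higher with sh2 in SEM and lower with sh2 in RCH.

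The strongest region of this window, on chromosome 11 from 36530898 to 36532111, was open in all 12 lists. Its folds, the authors' enrichment value of a peak over background, were 16.9 and 16.4 in RS411 sh2 and 18.3 and 19.2 in RS411 NT. SEM had 14.3 and 15.6 with sh2 and 13.0 and 11.5 with NT, and RCH had 8.33 and 14.1 with sh2 and 16.6 and 13.4 with NT. Folds are not normalized between lists and rank peaks only within a list. The mean percentile of this region among the peaks of its lists was 94.7. For lack of an hg19 annotation, it was not assigned to RAG1, RAG2 or a neighbouring gene such as TRAF6. The other region open in all 12 lists, from 36562500 to 36562952, was of middling strength, with a mean percentile of 48.0. Regions from 36560057, 36595211 and 36619624 were open in 11 lists each.

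The rest of the window was open in part of the lists. Of its 20 regions, 19 were open in both libraries of at least 1 sample. SEM alone was open, in all 4 of its lists, at 36521841 to 36522352 and at 36615842 to 36616549. At the first of these it had folds of 9.05 and 13.4 with sh2 and 4.83 and 5.63 with NT. At the second, SEM had folds of 8.68 and 7.81 with sh2 and 6.83 and 5.53 with NT. SEM in turn had no peak at 3 successive regions from 36588235 to 36591013, where RS411 had folds of 3.55 to 9.83 with sh2 and 4.28 to 8.84 with NT. RCH had 3.57 to 4.97 with sh2 and 4.25 to 7.33 with NT there, each list counted over the regions in which it had a peak. At this short run, SEM was free of peaks over 8.91 kb, so a difference between lines lay within a few kb of a region that SEM shared, that from 36595211. Region 36627108 to 36627858 was open in both libraries of RCH NT (7.14 and 6.42), in 1 of RCH sh2 and in 1 of RS411 NT. Regions 36560612 to 36560879 and 36602638 to 36603353 were open in RCH NT only, with folds of 3.56 to 4.0. The region from 36580034 to 36580583 was open in both sh2 libraries of RS411 and SEM, in 1 RS411 NT library and in no RCH list. The remaining reproducible regions of the window, 5 in number, were open in 3 to 9 lists with folds of 3.17 to 11.9.

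DNTT, which lies between BLNK and OPALIN in the RefSeq order, had 2 to 4 peaks per list, or 1.72 to 3.58 times the density of the list. Its window was denser than its flanks in 8 of 12 lists, with ratios of 0.67 to 2. The mean density of 2.63 fell to 1.88 with lists of equal length, and to 1.10 with only peaks above the pooled median fold. Its main region lay at 98066245 to 98066718 of chromosome 10, with folds of 11.5 and 10.7 in RS411 sh2, 11.8 and 10.8 in RS411 NT, 9.07 and 7.05 in SEM sh2 and 7.87 and 6.39 in SEM NT. RCH had 5.46 and 3.94 with sh2, and with NT a peak in library 2 only, at 4.49. This region was thus absent from 1 of 12 lists. The region from 98064794 to 98065088 was open in all 8 lists of RS411 and SEM, at 4.78 to 5.69, and in no RCH list. The RCH NT libraries instead had peaks of 4.26 and 4.53 from 98064028 to 98064284. The region from 98059174 to 98059977 was open in all lists but those of SEM sh2, with folds of 5.13 to 5.97 in RS411, 3.43 to 4.48 in RCH, and 4.55 and 5.35 in the SEM NT libraries.

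**Figure D2:**
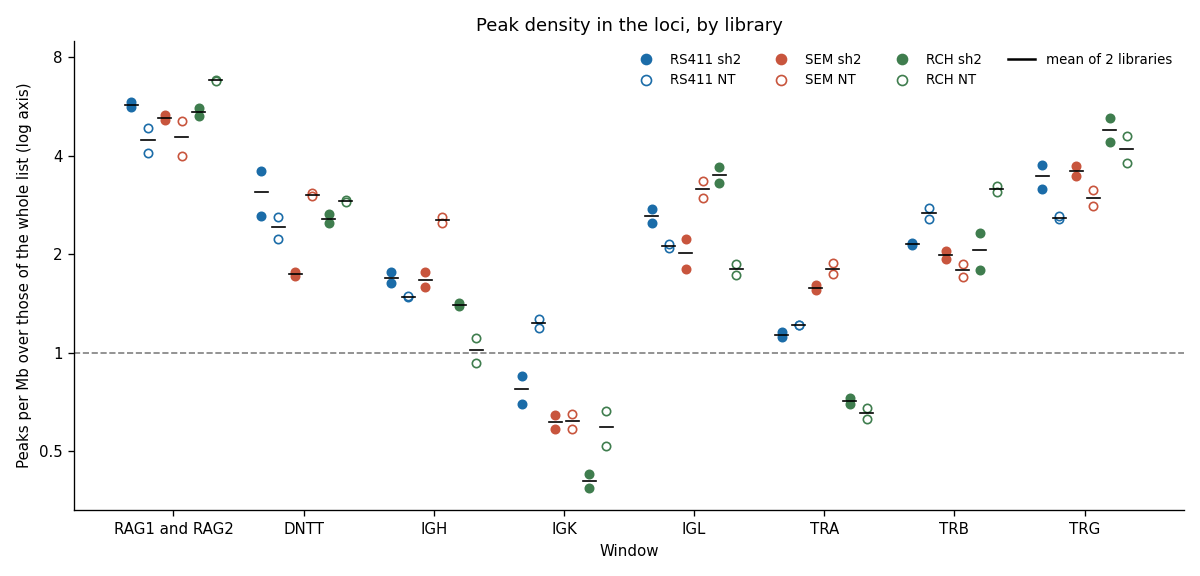
Peak density in each window, given as peaks per Mb over the peaks per Mb of the whole list (vertical axis, log scale), by window. Each point is 1 library, filled for sh2 and open for NT, and bars are means of the 2 libraries. RAG1 and RAG2 lie between 4.01 and 6.83, IGK is below 1 in all libraries but the 2 of RS411 NT, and TRA is below 1 in the 4 RCH libraries alone.

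Among the receptor loci, peaks were dense in TRG, IGL and TRB and sparse in IGK. The density relative to the whole list averaged 3.61 ± 0.80 in TRG, 2.54 ± 0.68 in IGL and 2.31 ± 0.52 in TRB. It averaged 1.64 ± 0.51 in IGH, 1.19 ± 0.46 in TRA and 0.71 ± 0.28 in IGK. These are means over 12 lists with the SD over the 6 sample means. Neighbours in this order overlapped in their ranges, which ran from 0.93 to 2.59 in IGH and from 0.39 to 1.27 in IGK. All 8 windows together had 1.39 to 2.11 times the density of the list. Set against flanks of the same length, every list was denser in IGL, TRB and TRG, and no list was denser in IGH or TRA. IGK was denser than its flanks in 9 of 12 lists, with ratios of 0.67 to 2.76, so it was sparse against the whole list only. For IGH only the lower flank could be used, since no list had a peak above the window. In RCH, TRA had 0.71 ± 0.02 with sh2 and 0.65 ± 0.04 with NT (SD over 2 libraries), against 1.12 to 1.88 over the 8 lists of the other lines.

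Few of the 403 regions were common to all lists. In the windows, 43 regions (10.7%) were open in all 12 lists, against 16.5% of all regions. Those open in the 4 lists of a line and in no other list numbered 11 for RS411 (2.73%, against 2.03% of all regions), 11 for SEM (2.73%, against 0.957%) and 1 for RCH (0.248%, against 0.889%). Of the SEM regions, 6 lay in IGH, 3 in TRA and 2 beside RAG1 and RAG2. Of the RS411 regions, 3 lay in IGH and 3 in IGK. The RCH sh2 lists were the shortest, with 44244 and 41594 peaks, and the RS411 NT lists the longest, with 84794 and 74244. With all lists shortened to 41594 peaks, the counts were 26 for all lists and 3, 8 and 4 for RS411, SEM and RCH. Without RS411 NT library 1, RCH had 2 such regions.

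A line gap is a run of at least 3 successive regions without a peak in any of the 4 lists of a line, each of them open in both libraries of at least 1 sample of another line. RS411 had 4 such runs in the windows, SEM 5 (8 without RCH NT library 2) and RCH 11. They held 19 of the 211 RS411 regions that could count (9.0%, against 1.81% over the genome), 19 of 229 in SEM (8.30%, against 5.35%) and 47 of 249 in RCH (18.9%, against 8.47%). Single regions without a peak of the line were also frequent, with 55 of 211 in RS411 (26.1%, against 17.6% over the genome), 65 of 229 in SEM (28.4%, against 25.5%) and 105 of 249 in RCH (42.2%, against 33.5%).

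**Figure D3:**
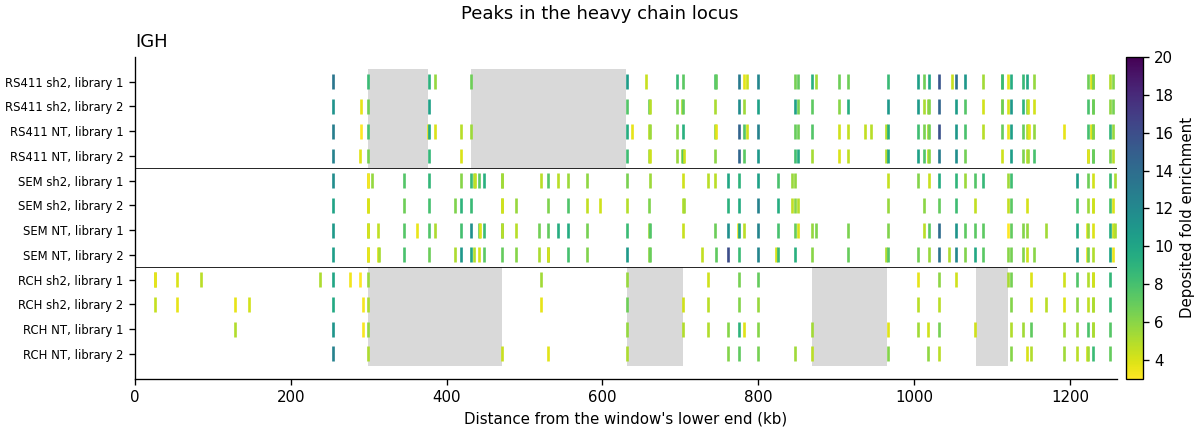
Peaks in the IGH window, 1 row per library, by distance in kb from the lower end of the window. Ticks are regions with a peak, coloured by the deposited fold, and grey marks line gaps with their whole stretch free of peaks. RS411 is empty over 198.841 kb and RCH over 172.757 kb, where SEM has peaks.

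IGH, on chromosome 14 from 106030001 to 107290000, held the gaps with the most regions. In the RefSeq order the constant genes lie at the lower end, then the J and D segments, and the V segments fill the rest. The window had 45 and 43 peaks in RS411 sh2 and 52 and 46 in RS411 NT, 47 and 41 in SEM sh2 and 58 and 57 in SEM NT. In RCH the numbers were 26 and 24 with sh2 and 26 and 22 with NT. RCH thus had fewest peaks here in number, and SEM NT most. Relative to the whole list, the means of 2 libraries were 1.70 in RS411 sh2 and 1.48 in RS411 NT. They were 1.67 in SEM sh2, 2.54 in SEM NT, 1.40 in RCH sh2 and 1.02 in RCH NT. By this measure RCH sh2 lay close to RS411 NT. In the first and second 100 kb RS411 and SEM had no peak at all, while RCH had 3 and 1 peaks per library with sh2 and 0 and 0.5 with NT.

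RS411 had no peak in any list from 106461829 to 106660669, a stretch of 198.841 kb. It held 10 regions that counted, from 106471124 to 106610406, and 4 runs of the whole RS411 map, itself included, held as many or more. With only peaks above the pooled median fold (6.37), or with support in all 4 lists of another line, it held 4 regions. SEM was open at 8 and 6 of these regions with sh2 and at 9 and 8 with NT, with folds of 4.21 to 9.21 with sh2 and 4.04 to 9.54 with NT. RCH was open at 1 and 1 with sh2 and at 0 and 2 with NT. In it, 3 SEM regions, from 106500648, 106585865 and 106610113, were open in all 4 SEM lists and in none of the other lines. At the strongest of these, from 106585865 to 106586426, SEM had 5.46 and 7.71 with sh2 and 9.54 and 8.03 with NT.

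RCH had no peak from 106328689 to 106501445, a stretch of 172.757 kb with 9 regions that counted, and 6 runs of the whole RCH map, itself included, were as large. SEM was open at 8 and 6 of them with sh2 and at all 9 in both NT libraries. RS411 was open at 2 and 1 with sh2 and at 3 and 2 with NT. The region from 106406688 to 106408043 was open in RS411 and SEM but not in RCH, with folds of 9.06 and 10.3 in RS411 sh2, 9.71 and 8.68 in RS411 NT, 8.72 and 7.99 in SEM sh2 and 7.60 and 6.83 in SEM NT. The stretches of RCH and RS411 overlapped over 39.617 kb, with 3 regions in common, and RS411 had a second run of 3 regions from 106328763 to 106374938 that lay within that of RCH. SEM had no gap in IGH, and its longest stretch between successive SEM peaks there was 48.1 kb. This leaves out the lower end of the window, where the first peak of SEM, as of RS411, lay 254 kb from the window start. Of the IGH regions that could count, 23 of 55 had no RS411 peak (41.8%), 10 of 49 no SEM peak (20.4%) and 32 of 60 no RCH peak (53.3%).

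Outside these stretches the lines shared strong regions. The region from 106284065 to 106285388, below both gaps, had folds of 13.3 and 11.3 in RS411 sh2, 12.8 and 12.6 in RS411 NT, 11.8 and 10.2 in SEM sh2, 10.8 and 10.6 in SEM NT, and RCH had 9.92 and 9.76 with sh2 and 11.1 and 12.5 with NT. The next in rank, from 106804922 to 106805345 and from 106829129 to 106829915, lay above both gaps, with folds of 5.60 to 14.6 over the 12 lists. In RCH, 3 further gaps of 3 regions each lay at 106689887 to 106725318, 106933668 to 106993872 and 107117547 to 107143407, so its peaks in the upper part of the locus stood in separate groups.

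**Figure D4:**
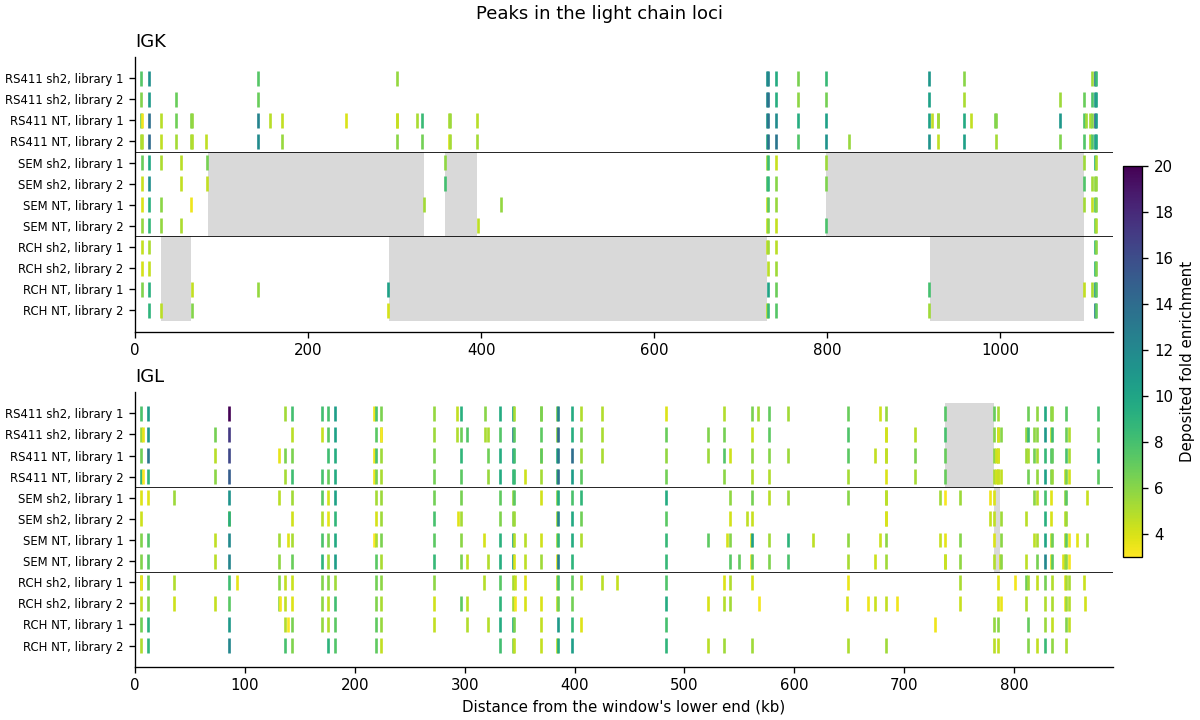
Peaks in the light chain windows IGK (top) and IGL (bottom), drawn as for IGH. In IGK no list has a peak over 307.312 kb in the middle, and grey gaps cover much of the SEM and RCH rows, whereas IGL is covered in all lists.

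IGK, on chromosome 2 from 89150001 to 90280000, was on average the sparsest locus relative to the whole list. It had 16 and 20 peaks in RS411 sh2 and 40 and 33 in RS411 NT, 14 and 15 in SEM sh2 and 13 and 12 in SEM NT. In RCH the numbers were 7 and 6 with sh2 and 14 and 11 with NT. No list had a peak from 89572959 to 89880270, a stretch of 307.312 kb, and part of the hg19 sequence of this locus is unassembled. The density of IGK was taken over the full window, with this stretch included. Its constant and J segments lie at the lower end in the RefSeq order, with V segments above.

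SEM had 2 runs of 5 regions here, and without RS411 NT library 2 its largest run held 10. The first, from 89291716 to 89482037, lay in 250.496 kb without a SEM peak. RS411 was open there at 1 and 1 regions with sh2 and at 4 and 4 with NT, and RCH at none with sh2 and at 2 and 1 with NT. The second, from 90067193 to 90218809, lay in 297.875 kb without a SEM peak, and RS411 was open at 2 and 3 of its regions with sh2 and at all 5 in both NT libraries, with folds of 4.64 to 11.3. RCH had a run of 6 regions from 89452701 to 89545303, in 437.338 kb without an RCH peak, most of it the stretch that was empty in all lists. Of these 6, 5 were open in both RS411 NT libraries, at 3.98 to 8.49, none in RS411 sh2, and 1 in both SEM sh2 libraries. RCH and SEM also shared 4 regions without peaks between 90077514 and 90218809. In all, 18 of 30 regions (60%) had no SEM peak and 19 of 32 (59.4%) no RCH peak, against 4 of 16 (25.0%) for RS411. With lists of equal length, the largest IGK run held 3 regions in SEM and 3 in RCH. Among peaks above the pooled median fold, neither line had a run of 3 in IGK.

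Of 5 IGK regions open in all lists, the leading one lay near the upper end. That region, from 90259487 to 90259976, had folds of 13.6 and 11.5 in RS411 sh2, 14.9 and 11.1 in RS411 NT, 9.21 and 5.96 in SEM sh2, 7.82 and 7.14 in SEM NT, and RCH had 8.73 and 8.96 with sh2 and 11.2 and 12.8 with NT. Those from 89165415 to 89166880, near the lower end, and from 89880958 to 89881732, just above the empty stretch, had folds of 4.48 to 14.1.

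IGL, on chromosome 22 from 22380001 to 23270000, was covered in all lines. It had 45 and 51 peaks in RS411 sh2 and 52 and 47 in RS411 NT, 42 and 33 in SEM sh2 and 53 and 48 in SEM NT. In RCH the numbers were 43 and 45 with sh2 and 31 and 29 with NT. The V segments come first in the RefSeq order, followed by pairs of J and constant segments. Other genes such as VPREB1, which encodes part of the surrogate light chain, lie among them. With 14 of 94 regions open in all 12 lists it had the highest share of such regions among the windows (14.9%). This was slightly below the 16.5% of all regions. The region from 22465288 to 22466155 had folds of 20.1 and 17.1 in RS411 sh2, 16.3 and 15.0 in RS411 NT, 11.3 and 9.40 in SEM sh2, 11.9 and 12.3 in SEM NT, and RCH had 8.23 and 7.32 with sh2 and 10.9 and 12.2 with NT. Next in rank were the regions from 22764338 to 22764900 and from 22777023 to 22777474. The only gaps were runs of 3 regions, from 23117176 to 23158575 in RS411 and from 23163230 to 23165972 in SEM, and RCH had none.

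**Figure D5:**
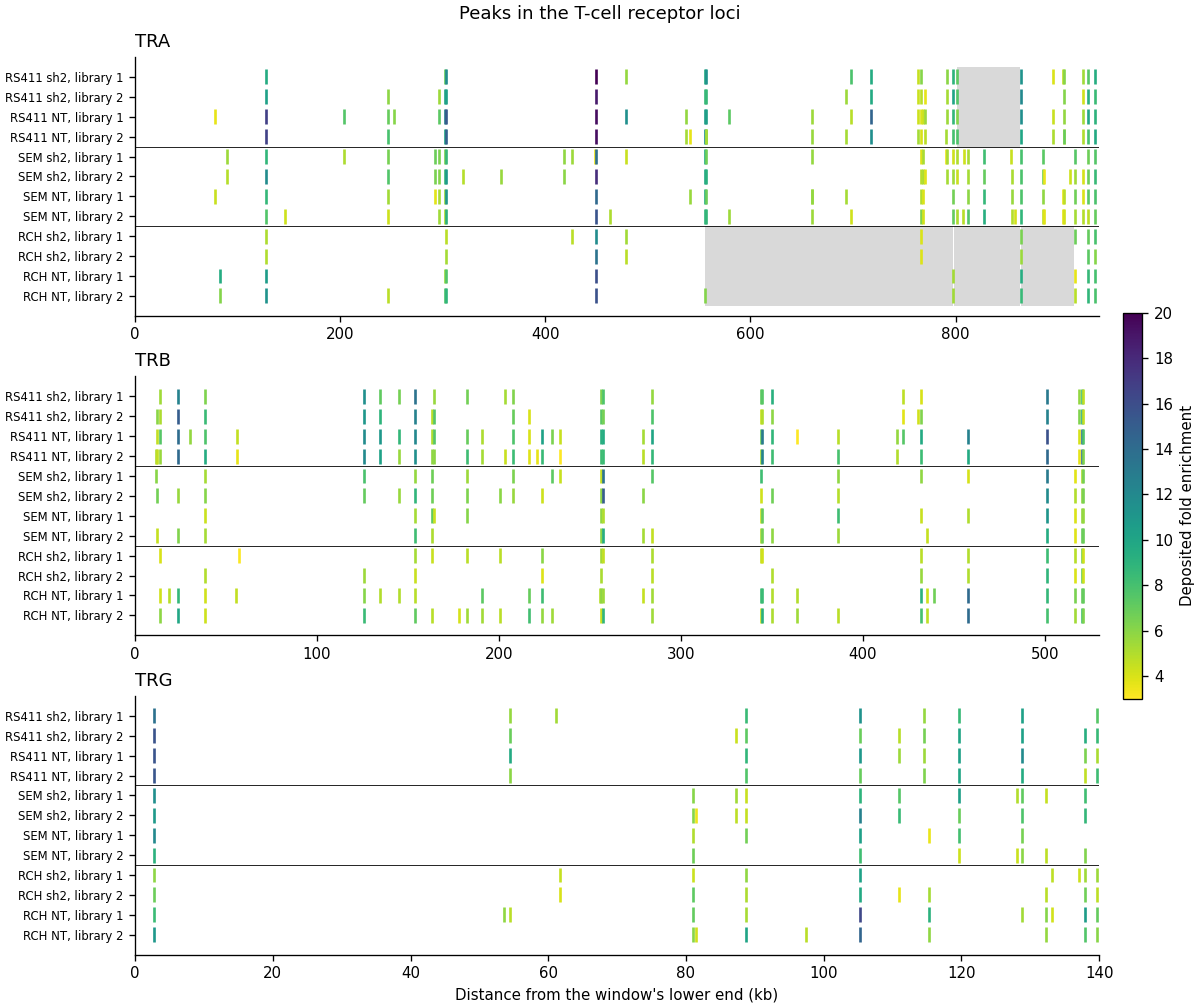
Peaks in the T-cell receptor windows TRA, TRB and TRG, drawn as for IGH. In TRA the RCH rows are nearly empty over the upper part, with 4 gaps one after another, while RS411 and SEM have peaks there. TRB and TRG have no gap.

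TRA, on chromosome 14 from 22090001 to 23030000, holds the TRD segments within it. It had 22 and 22 peaks in RS411 sh2 and 32 and 28 in RS411 NT, 31 and 31 in SEM sh2 and 29 and 32 in SEM NT. In RCH the numbers were 10 and 9 with sh2 and 11 and 12 with NT. Of 34 regions that could count, 22 had no RCH peak (64.7%), against 10 of 30 for RS411 (33.3%) and 5 of 25 for SEM (20.0%). RCH had 4 gaps, of 5, 3, 4 and 4 regions, which followed each other from 22646136 to 23005872, parted by single open regions. The longest, from 22646224 to 22853848, lay in 209.735 kb without an RCH peak, and held 9 regions where 50% of a region had to be covered and 3 with support in all 4 lists of another line. Its region from 22807744 to 22808190 was open in RS411 alone, at 9.51 and 9.65 with sh2 and 14.6 and 11.6 with NT. Its region from 22646224 to 22646596 was open in RS411, at 11.3 and 8.62 with sh2 and 10.5 and 6.69 with NT, and in SEM, at 6.67 and 9.24 with sh2 and 6.82 and 8.73 with NT.

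RS411 had 1 gap in TRA, of 3 regions from 22901555 to 22945018 in 61.4 kb without a peak, which lay within a gap of RCH. SEM was open there, most strongly from 22917079 to 22918147, with 8.23 and 6.99 with sh2 and 8.66 and 9.32 with NT. All lines shared the region from 22539103 to 22539688, which had folds of 22.4 and 18.8 in RS411 sh2, 19.5 and 19.4 in RS411 NT, 13.9 and 17.8 in SEM sh2, 14.2 and 15.6 in SEM NT, and RCH had 11.8 and 13.5 with sh2 and 15.9 and 15.7 with NT. Its mean percentile of 97.8 was the highest of the named regions. The regions from 22217138 to 22217667 and from 22392554 to 22393088 came next, with folds of 4.79 to 16.8.

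TRB and TRG, both on chromosome 7, had no line gap. TRB, from 141990001 to 142520000, had 23 and 24 peaks in RS411 sh2 and 38 and 36 in RS411 NT, 23 and 21 in SEM sh2 and 16 and 18 in SEM NT. In RCH the numbers were 18 and 13 with sh2 and 32 and 31 with NT. Only 2 of 26 regions that could count had no RS411 peak (7.69%), against 9 of 36 for SEM (25.0%) and 8 of 34 for RCH (23.5%). The region from 142490724 to 142491463 led, with folds of 13.2 and 12.5 in RS411 sh2, 15.8 and 14.3 in RS411 NT, 13.0 and 11.9 in SEM sh2, 11.1 and 9.55 in SEM NT, and RCH had 8.33 and 8.91 with sh2 and 8.65 and 8.01 with NT. The regions from 142510037 to 142510615 and from 142143483 to 142144359 were also open in all lists. TRG, from 38270001 to 38410000, had 7 to 12 peaks per list. Its region from 38272418 to 38273058 had folds of 13.7 and 15.6 in RS411 sh2, 15.6 and 15.4 in RS411 NT, 11.6 and 10.9 in SEM sh2, 12 and 9.17 in SEM NT, and RCH had 5.90 and 6.85 with sh2 and 8.38 and 10.9 with NT. The region from 38374999 to 38375648 was likewise open in all 12 lists, and that from 38358461 to 38358838 in 11. Each line lacked 1 TRG region that the other lines had in all their lists. These were 38350875 to 38351266 in RS411, 38409473 to 38409804 in SEM and 38389371 to 38389818 in RCH.

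The last comparison asked whether the loci took another share of the peaks with sh2 than with NT. Over all windows, the log2 ratio of the share of a list's peaks, sh2 over NT, was 0.02 in RS411, -0.33 in SEM and 0.21 in RCH, and these averaged -0.03 with an SD of 0.27. Flipping the signs of the 3 lines, an exact test that was two-sided, gave p = 1. The smallest p that 3 lines allow is 0.25, so no window could pass 0.05, and p adjusted over the 8 windows was 0.857 to 1. IGK had a ratio of -0.65 in RS411, -0.01 in SEM and -0.49 in RCH (lower in 3 of 3 lines, exact p = 0.25, and p = 0.75 when only peaks above the pooled median fold were kept), while the rest of chromosome 2 had -0.04, 0.03 and -0.14. TRG had 0.42, 0.24 and 0.20 in the same order (higher in 3 of 3 lines, exact p = 0.25, and p = 0.5 with lists of equal length or only peaks above that median), on 7 to 12 peaks per list.

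Other windows moved in different directions in different lines. IGL had 0.30 in RS411, -0.64 in SEM and 0.95 in RCH, while the rest of chromosome 22 had 0.28, -0.31 and 0.59, so the chromosome around it moved the same way. IGH had 0.19, -0.60 and 0.46 while the rest of chromosome 14 had 0.04, -0.0014 and -0.01. TRB had -0.30, 0.15 and -0.60, against -0.07, 0.07 and -0.09 for the rest of chromosome 7. The whole lists changed in length by a log2 ratio of -0.35 in RS411, 0.22 in SEM and -0.40 in RCH. With lists of equal length, the mean over all windows was 0.0026.

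Regions open in both libraries of an shRNA and in none of the other were counted in each line. RS411 had 3 sh2-only regions (1.09% of 275, against 0.879% of all its regions) and 27 NT-only regions (9.82%, against 9.68%). SEM had 13 sh2-only (4.78% of 272, against 7.65%) and 16 NT-only (5.88%, against 2.61%), and RCH had 16 sh2-only (7.44% of 215, against 1.92%) and 22 NT-only (10.2%, against 10.5%). Leaving out 1 library of a line loosens the rule, and the counts then reached 12 sh2-only and 56 NT-only regions in RS411, 30 and 41 in SEM and 33 and 48 in RCH. In RS411 13 of the 41 IGK regions (31.7%) and 9 of the 41 TRB regions (21.95%) were NT-only. With lists of equal length these were 2 and 2, and without RS411 NT library 2 IGK had 21. In RCH 8 of the 63 IGL regions (12.7%) were sh2-only, and none with only peaks above the pooled median fold. Without RCH sh2 library 1 these were 18, and without RCH sh2 library 2 they were 15.

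The strongest NT-only regions of RS411 were in TRB, from 142447821 to 142448297 (folds of 12.6 and 9.66) and from 142213179 to 142213693 (10.2 and 8.56), followed by IGK from 89481732 to 89482037 (8.49 and 6.64). Its 3 sh2-only regions had folds of 6.04 and 5.17 at 22697983 to 22698211 and 4.58 and 5.00 at 22672762 to 22673110, both in IGL, and 5.68 and 3.31 at 107142509 to 107142876 in IGH. In SEM the leading sh2-only regions lay in TRG from 38380783 to 38381201 (7.51 and 8.49), in TRB from 142115628 to 142115874 (7.85 and 7.01) and in IGK from 89508065 to 89508410 (5.80 and 8.06). Its leading NT-only regions lay in IGL from 23213722 to 23214455 (6.77 and 7.33), in TRB from 142334813 to 142335150 (7.05 and 6.62) and in IGH from 106945065 to 106945462 (6.34 and 6.98). In RCH the 3 leading sh2-only regions were all in IGL, from 22511216 to 22511562 (6.10 and 5.79), from 23190611 to 23190886 (6.77 and 4.96) and from 22921623 to 22921911 (5.00 and 5.38). Its leading NT-only regions were in TRB from 142013375 to 142013923 (8.65 and 9.90) and from 142206328 to 142206791 (6.94 and 8.17), and in TRA from 22172207 to 22172551 (9.54 and 6.13).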

How the data were processed

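Peak lists of 12 ATAC-seq libraries (3 lines, sh2 or NT, 2 libraries per sample) were used. Bowtie2, MACS2 and build hg19 are named per the submitters' processing notes. Neither versions nor settings nor read numbers are known here, so depth is unknown and no floor is given. The deposited lists have 5 columns, the last read from its values as a fold enrichment, a ratio of signal to the peak caller's background. Peaks on the 22 autosomes and X were used (718792, with 140 left out) and merged where they touch or overlap. No peak straddled a window edge.

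In line gaps, any peak of the line ended a run, and regions that were neither open in the line nor reproducible in another line were set aside. The log2 ratio of peak shares used a pseudocount of 0.5. Lines paired the samples in the sign-flip test, by the line named in the titles. Flanks had the length of the window on both sides, as far as the last peak of the chromosome, which left IGH with its lower flank only. Members and rules were chosen with earlier results of these data known. Named were all reproducible regions of the enzyme windows, the 3 top regions open in all lists of each receptor window, the longest gap per line and window, and up to 3 sh2-only and 3 NT-only regions per line by mean percentile. The steps were tested on simulated lists with planted gaps and changed regions, all of which were found. Before planting, every simulated list held every region with the same limits. The test thus checked the code and not how well gaps are found in real lists. Segments, other joining genes and lineage markers needed an hg19 annotation and were not analysed here. Promoters were copied from RefSeq tables. Alternatives were lists of equal length, peaks above the pooled median fold, 50% of a region covered, other gap rules, wider windows, no pairing, a pseudocount of 1, and each library or line left out. Python 3.11.15, numpy 2.4.6, pandas 2.3.3 and matplotlib 3.10.9 were used.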

Additional observations from a re-analysis of the deposited data

Results flagged for a closer look

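In 6 windows and in all windows together, the share of peaks was higher in both sh2 libraries than in both NT libraries of 1 line and lower in another. The difference between lines was not tested, and with 2 libraries per sample such opposite orders can also arise between libraries. The log2 ratios of sh2 over NT lay furthest apart in IGL, with 0.95 in RCH against -0.64 in SEM, a difference of 1.59. In IGH they differed by 1.06 between RCH (0.46) and SEM (-0.60). In DNTT they differed by 1.05 between RS411 (0.35) and SEM (-0.70), on 2 to 4 peaks per list. In TRB they differed by 0.74 between SEM (0.15) and RCH (-0.60). In the RAG1 and RAG2 window they differed by 0.63 between RS411 (0.35) and RCH (-0.28), and in TRA by 0.33 between RCH (0.14) and SEM (-0.19). Over all windows they differed by 0.54 between RCH (0.21) and SEM (-0.33).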

How the results depend on the processing

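With lists of equal length, RS411 had 14 sh2-only and 5 NT-only regions, SEM 7 sh2-only and RCH 10 NT-only, SEM had 2 line gaps, 26 regions were open in all lists and 3 and 4 were specific to RS411 and RCH. The share of peaks, sh2 over NT, then averaged 0.72 in DNTT and 0.0026 over all windows, both reversed. With only peaks above the pooled median fold, the density over all windows was 1.39 and IGH, IGL and DNTT turned to -0.0099, -0.18 and 0.23. RS411 then had 6 sh2-only and 8 NT-only regions, SEM 10 NT-only and RCH 0 sh2-only, with 1 gap in RS411 and 2 in SEM. In these lists 8 regions were open in all, 4 were specific to SEM and 0 to RCH. The largest IGH gap then held 4 regions in RS411 and 9 in RCH, against 8 and 8 with equal lists. With 50% of a region covered, 17 regions were open in all lists. With at least 5 regions to a gap there were 1, 2 and 3 in RS411, SEM and RCH, and with support in all 4 lists of another line 1, 0 and 3. Stricter support or longer runs find fewer gaps by construction.

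Leaving out RS411 turned IGH to -0.068 and RAG1 and RAG2 to -0.052. Without SEM, TRA, DNTT and all windows became 0.025, 0.13 and 0.12, and without RCH, IGH and IGL became -0.20 and -0.17. With 1 library left out, IGH ranged from -0.021 to 0.063, sh2-only regions from 3 to 12, 13 to 30 and 16 to 33 and NT-only regions from 27 to 56, 16 to 41 and 22 to 48 in RS411, SEM and RCH, gaps of SEM from 5 to 8 and RCH-specific regions from 1 to 2. The sh2-only and NT-only counts moved by over 1.5 times only when a library of the same line was left out, each of the 4 in RS411 and SEM and each of the 4 in RCH for at least 1 of the counts. Without the replicate block, that is without pairing by line, the mean over all windows stayed -0.03 (exact permutation p = 0.8), and no window passed 0.05. Coverage of a region could not apply to peak numbers and was not run there. Read depth is unknown and limits what an empty stretch can show.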
